A study of Homo sapiens with 6 samples.

Results

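Clone-derived names are the placeholder symbols that an annotation gives to a gene from the accession of the cloned genomic segment in which it was found, such as AC126755.2. In the deposited table of estimated read counts, rows were taken whose symbol is 2 capital letters, 6 digits, a dot and digits, and whose counts over all 6 libraries sum to 400 or more, leaving out 3 further names. This gave 113 transcripts of 1945 clone-named rows and 17042 rows in all, and the level of a transcript, which chose it, is given below as a description only. The row with the next lower sum was AC118553.2 at 390 counts, followed by AC138969.2 at 389 and AC068631.2 at 382, and the lowest inside were AC002996.1 at 407, AC074327.1 at 410 and FP671120.3 at 413. Of the 3 names left out, 1 had a sum of 400 or more. These names were known to differ between knockdown and control cells, so counts of calls below describe the remaining transcripts only.

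The libraries were polyA RNA from THP1, a human monocytic leukaemia cell line that the phorbol ester PMA turns into macrophage-like cells. Knockdown cells (n = 3) carried small interfering RNA (siRNA) against the long noncoding RNA RP11-184M15.1, brought in with Lipofectamine RNAiMAX before IL-4 was added. Control cells (n = 3) carried the genotype label WT, and the sources used here do not say what they were transfected with. Both groups had 100 ng/mL PMA for 24 hours and then 20 ng/mL IL-4, a cytokine that drives an alternative macrophage state, for 24 hours. No row carries the name RP11-184M15.1, so the level of the targeted RNA is not analysed here. Nothing in the labels says that the libraries of a group came from separate cultures, so the spread behind each p-value may be only technical.

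A placeholder name says nothing about function. It is kept by long noncoding RNAs (transcripts with no known protein product, some antisense to a coding gene), by pseudogenes (copies of a gene, often made from its spliced RNA, that no longer give the same protein) and by transcripts that run from one gene into its neighbour. Reads that match several such sequences equally well are divided between them by a statistical estimate, and the counts here, which Salmon gives as estimates, are of that kind.

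Library totals ran from 12029360 to 14181343 counts in knockdown cells and from 10450043 to 12113848 in control cells. Levels below are in CPM, a gene's counts scaled by library total and TMM factor, and a floor of 3 counts corresponded to 0.210 to 0.289 CPM. All 12 macrophage markers examined were in the table, with summed levels of 8175 to 8462 CPM in knockdown and 7908 to 8713 CPM in control libraries; 3 were higher and 1 lower in knockdown cells (edgeR, adjusted p under 0.05). The 11 of 12 IL-4 response genes in the table summed to 5679 to 5938 CPM in knockdown and 6453 to 7047 CPM in control libraries, and 4 of them fell (edgeR, adjusted p under 0.05). None of 4 T cell markers was in the table, and B cell, epithelial and fibroblast markers summed to at most 3.18 CPM in any library. Erythroid markers summed to 0.162, 0.140 and 29.6 CPM in knockdown libraries 1 to 3 and to at most 0.472 CPM in control libraries, so knockdown library 3 stood apart; the part of this in the results below was not tested.

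The GENCODE 29 annotation on GRCh38, matched by symbol, held 105 of the 113 transcripts, on 19 chromosomes, and 33 have since received another symbol. By annotated type 48 were noncoding (19 antisense and 16 long intergenic among them), 30 were protein-coding and 27 were pseudogenes, while 8 had no entry. Of the 105, 60 overlapped another gene of the table, 42 of them one on the same strand and 32 one on the opposite strand. The sequence shared with other genes was measured as the percentage of a gene's 31-base words that also occur in an annotated transcript of another gene. The median was 95.4% in the protein-coding transcripts, 73.7% in the pseudogenes and 5.7% in the noncoding transcripts. Every word was shared in 10 transcripts and none in 14. In 52 transcripts 50% or more was shared, and 26 of these were protein-coding.

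All 113 transcripts passed the filter on low counts and were tested with edgeR's quasi-likelihood test, adjusted by the Benjamini-Hochberg method over 13405 rows. An adjusted p of 0.05 was passed by 3, which is 2.65% of the transcripts against 2.83% of all rows tested. The names left out, known to differ, are not counted among the transcripts. One was higher in knockdown cells, against 1.22% of all rows, and 2 were lower, against 1.61% of all rows. The knockdown and control libraries did not overlap in CPM for 21 transcripts (18.6%), against 20.0% of all rows. The median log2 fold change, knockdown over control, was -0.002 over the 113 transcripts and -0.002 over all rows, with 55 values above 0 and 58 below. The median size of the change was 0.11 on the log2 scale, against 0.09 over all rows and 0.08 over the 9929 other rows with at least 400 counts.

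Every call lay among the protein-coding transcripts, in 3 of 30, and none among the 48 noncoding transcripts, the 27 pseudogenes or the 8 without an entry (edgeR, adjusted p under 0.05). All 3 also lay among the 52 that share 50% or more of their sequence, and none among the 20 that share 10 to 50% or the 33 that share under 10%. Whether calls differ in frequency between these classes was not tested. The calls are 10.0% of the 30 protein-coding transcripts. Among 9623 protein-coding rows of the same count minimum whose names are not clone-derived, 3.62% passed, and this difference was not tested either. Unadjusted p-values under 0.05 were found for 20 of the 113 transcripts (17.7%), and for 2025 of the 13405 rows. Among 74 named long intergenic or antisense RNAs of the same count minimum 1 passed, higher in knockdown cells, and among 588 tested clone-named rows under that minimum 3 were higher and 2 lower. None of 24 tested well-known long noncoding RNAs passed, with a median log2 fold change of 0.04.

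**Figure D1:**
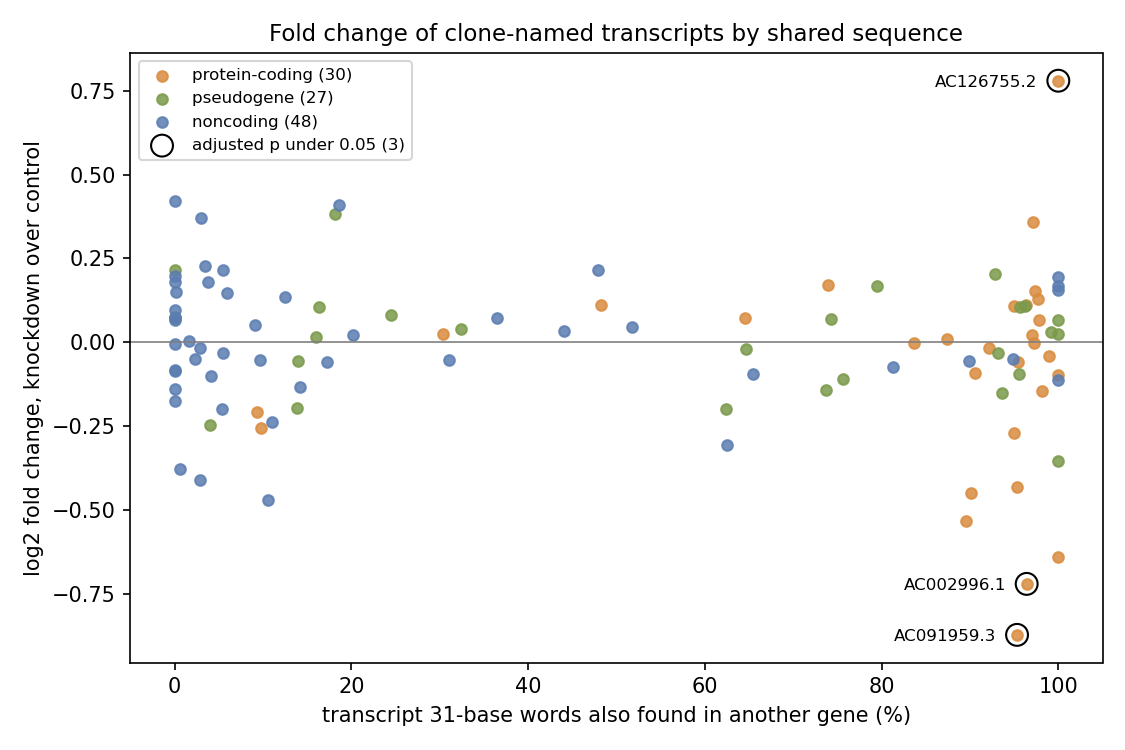
Log2 fold change, knockdown over control, of the 105 annotated transcripts (y axis) against the percentage of their 31-base words found in another gene (x axis), coloured by annotated class. The 3 circled transcripts passed an adjusted p of 0.05 (edgeR), and all lie at 95.3% or more shared sequence.

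AC126755.2, since renamed NPIPA9, was higher in knockdown cells. It is a protein-coding copy of the nuclear pore complex interacting protein family, a set of repeated genes on chromosome 16, at chr16:18358086-18379331 on the minus strand. Its counts were 151, 212 and 175 in knockdown libraries 1 to 3 and 64, 90 and 111 in control libraries 1 to 3. The groups did not overlap in CPM, which averaged 13.8 ± 1.40 in knockdown and 8.09 ± 2.37 in control cells (SD, n = 3 each). The log2 fold change was 0.78 ± 0.16 (SE, edgeR adjusted p = 0.0130). Every one of its 31-base words also occurs in another gene, 97.8% of them in PKD1P1, a pseudogene of the polycystin gene PKD1 in the same repeated region.

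PKD1P1 itself had 106, 161 and 47 counts in knockdown and 56, 27 and 72 in control libraries. Its log2 fold change of 0.76 ± 0.34 (SE) was about as large, but the groups overlapped and it did not pass (edgeR adjusted p = 0.303). AC126755.2 held 56.8 to 78.8% of the counts of the pair in knockdown libraries and 53.3 to 76.9% in control libraries. AC126755.1, AC126755.2 and AC138932.1 share more of their words with PKD1P1 than with any other gene of the table. With these transcripts and PKD1P1 summed into 1 row, the log2 fold change was 0.17 and did not pass (edgeR adjusted p = 0.224). Clone-named PKD1 pseudogenes of chromosome 16 did not pass either. AC138969.1 (PKD1P2) gave -0.15, AC138932.1 (PKD1P3) -0.10 and AC126755.1 (PKD1P4) 0.11 on the log2 scale (edgeR adjusted p of 0.469, 0.688 and 0.756). NPIPA1, which holds 77.8% of the words of AC126755.2, gave 0.30 ± 0.11 (SE, log2) and did not pass (edgeR adjusted p = 0.204). NPIPA8 gave -0.11 ± 0.17 (SE, log2) and did not pass (edgeR adjusted p = 0.835). Reads of these repeated genes are therefore reported as uncertain between the copies.

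AC091959.3 was lower in knockdown cells. It is annotated as protein-coding at chr5:146203550-146339251 on the plus strand and overlaps RBM27, an RNA-binding protein gene, whose transcripts hold 89.3% of its 31-base words. Counts were 74, 108 and 125 in knockdown and 148, 214 and 118 in control libraries. In CPM these were 5.99, 7.58 and 10.3 in knockdown and 13.98, 17.9 and 11.4 in control libraries, so that knockdown library 3 and control library 3 lay close together without overlap. The log2 fold change was -0.87 ± 0.18 (SE, edgeR adjusted p = 0.0145).

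RBM27 averaged 59.5 ± 4.78 CPM in knockdown and 59.8 ± 1.31 CPM in control cells (SD, n = 3 each), a log2 fold change of -0.01 ± 0.06 (SE, edgeR adjusted p = 0.975). AC091959.3 held 8.48, 11.5 and 15.6% of the counts of the pair in knockdown libraries, against 18.6, 23.4 and 16.01% in control libraries. Summed with RBM27 it gave -0.14 on the log2 scale and did not pass (edgeR adjusted p = 0.233). Only 153 of its 31-base words occur in no other gene, and the sequence below is an exon junction that carries such words, from a GENCODE 29 transcript, with the bases after the junction in capitals. It shows a stretch in which a read can be told from RBM27.
AC091959.3 junction 1: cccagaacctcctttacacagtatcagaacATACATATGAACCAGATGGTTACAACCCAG

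AC002996.1, the lowest transcript by count sum, was also lower in knockdown cells. It is annotated as protein-coding at chr12:111753890-111791418 on the plus strand, across part of ACAD10, an acyl-CoA dehydrogenase family gene, and of ALDH2, the mitochondrial aldehyde dehydrogenase. Counts were 52, 75 and 43 in knockdown and 77, 85 and 75 in control libraries. The groups did not overlap in CPM, at 4.34 ± 0.872 in knockdown and 7.20 ± 0.0788 in control cells (SD, n = 3 each), and the log2 fold change was -0.72 ± 0.16 (SE, edgeR adjusted p = 0.0261).

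ALDH2 shares 86.6% of the words of AC002996.1 and lay lower by a smaller margin, at 31.5 ± 2.21 CPM in knockdown and 37.3 ± 1.35 CPM in control cells (SD, n = 3 each). Its groups did not overlap, but its log2 fold change of -0.25 ± 0.07 (SE) did not pass (edgeR adjusted p = 0.0853). The sum of both rows did, at -0.32 ± 0.06 on the log2 scale (SE, edgeR adjusted p = 0.0128). AC002996.1 has 27 words of its own, all across the single junction printed below, with the bases after the junction in capitals (GENCODE 29).
AC002996.1 junction 1: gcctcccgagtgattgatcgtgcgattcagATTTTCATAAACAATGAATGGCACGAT

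Each of these calls was lost when certain single libraries were left out. Without control replicate 2 none of the 3 passed, with edgeR adjusted p-values of 0.0958 for AC126755.2, 0.133 for AC091959.3 and 0.108 for AC002996.1. Without knockdown replicate 1, 2 or 3 in turn, 1 transcript passed each time. Calls over all rows changed in the same fits, from 379 with all libraries. They fell to 165 without control replicate 2 and to 194, 139 and 156 without knockdown replicates 1, 2 and 3. Without control replicates 1 and 3 they rose to 542 and 488. Without knockdown replicate 3, the library with erythroid markers, AC091959.3 passed (edgeR adjusted p = 0.01003), and AC126755.2 (0.0689) and AC002996.1 (0.120) did not. The direction of all 3 was the same in all 6 of these fits.

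**Figure D2:**
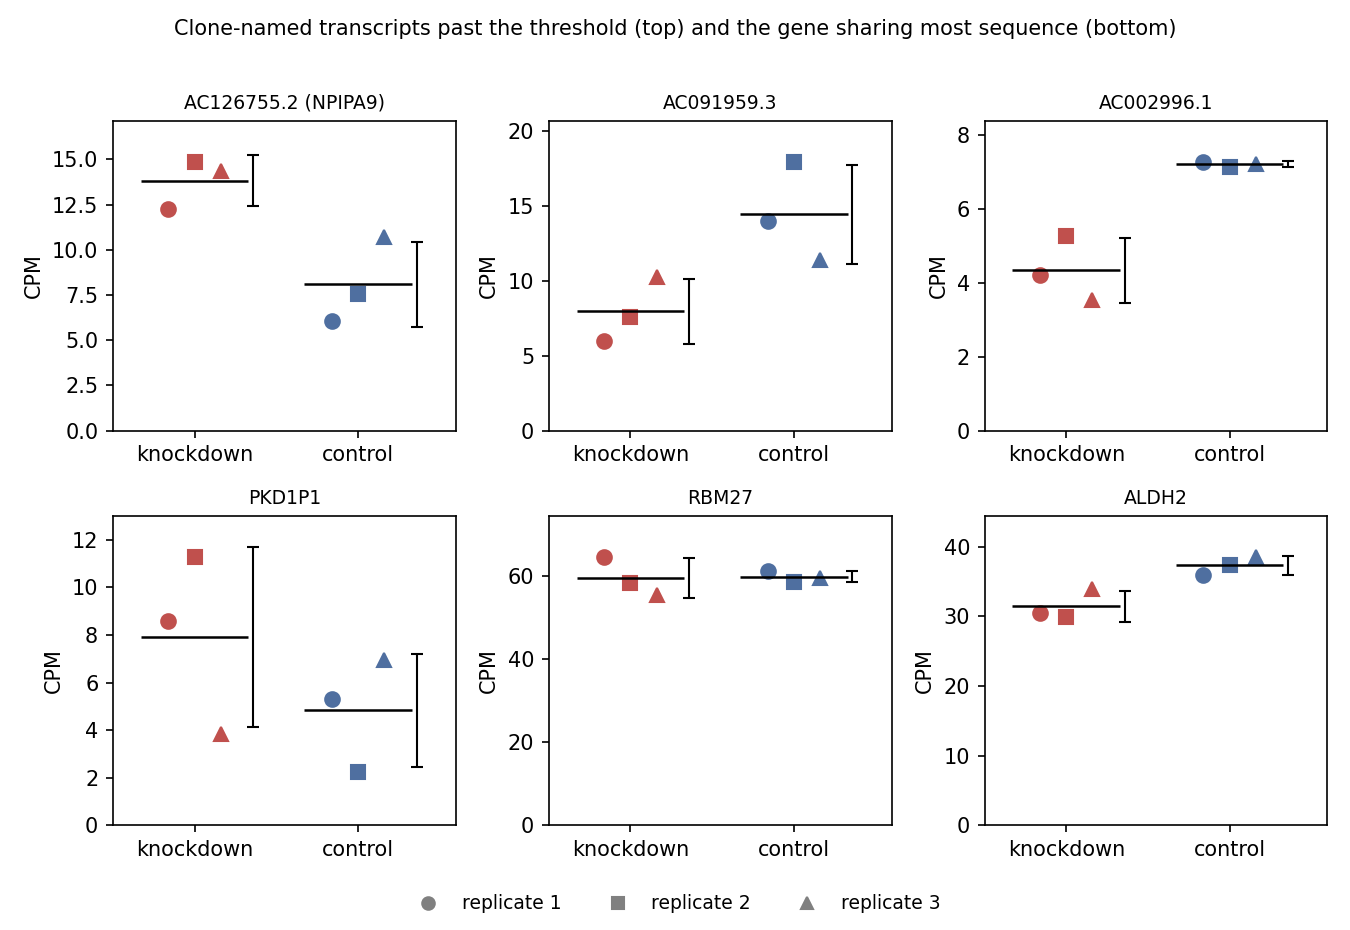
CPM (y axis, from 0) in each knockdown and control library of the 3 transcripts that passed the threshold (top) and of the gene that shares most of their sequence (bottom). Lines are means and bars are SDs of 3 libraries; RBM27 lies at 59.5 CPM in knockdown and 59.8 CPM in control cells while AC091959.3 lies at 7.95 and 14.4 CPM.

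AD000090.1 was by far the most abundant of the transcripts. It is annotated as antisense, with 1 transcript of 494 bases at chr19:35557956-35581954 on the plus strand, but overlaps no other gene of the table. It shares no 31-base word with another gene of GENCODE 29, which says nothing of sequences outside that annotation. It held 148608 of the 294017 counts of all 113 transcripts (50.5%) and ranked at place 36 in the whole table. Per length it stood at 4164 CPM per kilobase, against 35.1 for AC093278.2, the transcript with the next highest count sum. Part of its transcript is printed below because this one sequence takes more counts than the other 112 transcripts together; capitals are the second exon (GENCODE 29, GRCh38). Stretches of ribosomal RNA are known to turn up inside annotated long noncoding RNAs, and this exon was not compared here with a 28S ribosomal RNA sequence.
AD000090.1: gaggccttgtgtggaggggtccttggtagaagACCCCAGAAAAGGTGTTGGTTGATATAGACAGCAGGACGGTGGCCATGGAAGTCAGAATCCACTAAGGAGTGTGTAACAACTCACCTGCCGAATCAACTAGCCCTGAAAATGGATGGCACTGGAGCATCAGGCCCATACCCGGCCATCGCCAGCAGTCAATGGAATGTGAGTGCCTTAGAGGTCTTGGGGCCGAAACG

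AD000090.1 had 25468, 31581 and 33919 counts in knockdown libraries, against 10573, 20192 and 26875 in control libraries. In CPM this was 2063, 2215 and 2785 in knockdown and 999, 1691 and 2586 in control libraries. Control library 3 lay above 2 of the 3 knockdown libraries, and within the control group the highest value was 2.59 times the lowest. The log2 fold change of 0.42 ± 0.21 (SE) did not pass (edgeR adjusted p = 0.374). With the replicate number as a block AD000090.1 was at 0.51 and passed (edgeR adjusted p = 0.0193), but no label pairs the libraries. Without the block, single control libraries moved the value. It was 0.14 without control replicate 1 (edgeR adjusted p = 0.652) and 0.81 without control replicate 3 (edgeR adjusted p = 0.00726).

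Rows named for structural RNAs, chosen after their values were seen, had the same order of libraries within each group. These RNAs work without being translated and in cells carry no long poly(A) tail. RN7SL1 and RN7SL2, named for the RNA of the signal recognition particle, had 51.0, 78.2 and 88.6 CPM and 77.0, 89.8 and 107 CPM in knockdown libraries, against 30.8, 53.6 and 75.5 CPM and 38.3, 63.9 and 96.2 CPM in control libraries. RN7SK, named for the RNA that holds a transcription elongation factor inactive, had 11.5, 19.3 and 22.8 CPM in knockdown and 7.37, 12.0 and 17.1 CPM in control libraries.

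RNA5-8SN5.1, named for the 5.8S ribosomal RNA, had 26.2, 31.4 and 50.3 CPM in knockdown libraries, against 12.0, 23.5 and 44.0 CPM in control libraries. Like AD000090.1, these 4 rows were lowest in replicate 1 and highest in replicate 3 of both groups, the groups overlapped and none passed (edgeR adjusted p of 0.272 to 0.531). FP671120.3, a long intergenic transcript on chromosome 21 that shares all of its words with other genes, had 4.94, 5.26 and 8.29 CPM in knockdown and 2.93, 5.11 and 8.08 CPM in control libraries, and it did not pass (0.20 ± 0.27, SE, edgeR adjusted p = 0.804). The order was not particular to rows named for structural RNAs. NEAT1, a long noncoding RNA, had 18.55, 19.08 and 23.73 CPM in knockdown and 13.32, 18.43 and 23.1 CPM in control libraries. The coding genes RAB43, REL and ZMYM6 also had this order, and other rows, such as GAS5, did not. These too were chosen after their values were seen. The part of structural RNA in the level of AD000090.1 was not tested.

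The share of all counts held by the 113 transcripts was examined with and without AD000090.1. It was 0.440 ± 0.0350% in knockdown and 0.377 ± 0.0801% in control cells (SD, n = 3 each), a difference that an exact two-sided permutation test over the libraries gave p = 0.3, where 0.1 is the smallest value possible. Without AD000090.1 the share was 0.203 ± 0.00409% in knockdown and 0.203 ± 0.000931% in control cells (exact permutation p = 0.9). The other 47 noncoding transcripts held 0.0773% in knockdown and 0.0765% in control cells, the pseudogenes 0.0526% and 0.0527%, and the protein-coding transcripts 0.0587% and 0.0591%.

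**Figure D3:**
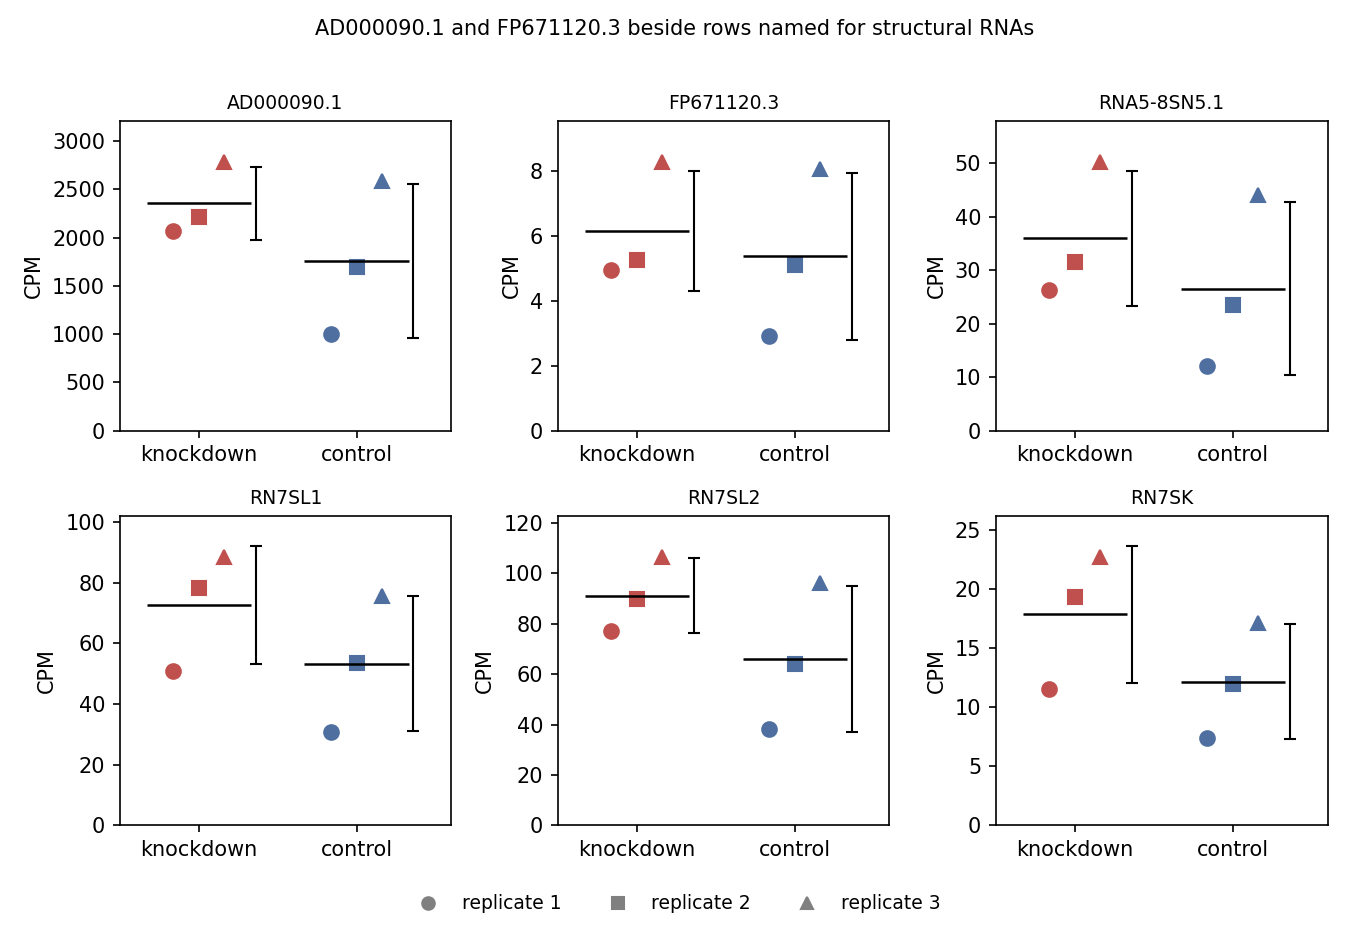
CPM (y axis, from 0) in each knockdown and control library of AD000090.1, FP671120.3 and 4 rows named for structural RNAs. Lines are means and bars are SDs of 3 libraries; in every panel replicate 1 is lowest and replicate 3 highest within both groups, and the groups overlap.

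Among the other abundant noncoding transcripts, AC093278.2 is of the sense-overlapping type and begins 265 bases beyond the 3′ end of ZNF366, a zinc finger gene on the same strand of chromosome 5. It had 84.2, 83.6 and 81.0 CPM in knockdown and 95.1, 87.6 and 91.6 CPM in control libraries. All knockdown libraries lay below all control libraries, but the log2 fold change of -0.14 ± 0.05 (SE) did not pass (edgeR adjusted p = 0.186). ZNF366, with 107 ± 3.12 CPM in knockdown and 127 ± 10.3 CPM in control cells (SD, n = 3 each), fell by 0.25 on the log2 scale (edgeR adjusted p = 0.0332). AP001972.5 averaged 66.6 CPM in knockdown and 65.6 CPM in control cells, and AC091182.1 averaged 63.0 and 62.7 CPM, so neither moved beyond the spread between libraries (edgeR adjusted p of 0.925 and 0.980).

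Antisense and divergent transcripts lie next to a coding gene, and 9 noncoding transcripts started within 1000 bases of the start of one on the opposite strand. AL050341.2, now ZMPSTE24-DT, starts 140 bases from the start of ZMPSTE24, the gene of the protease that matures lamin A. It had 31.3, 33.7 and 30.3 CPM in knockdown libraries, against 30.8, 26.5 and 27.0 CPM in control libraries, a log2 fold change of 0.18 ± 0.08 (SE, edgeR adjusted p = 0.297). ZMPSTE24 gave 0.17 ± 0.05 on the same scale and did not pass either (edgeR adjusted p = 0.0657). AC009948.1, now CHROMR, is a long noncoding RNA known for its part in cholesterol efflux from macrophages, and overlaps PRKRA on the opposite strand. CHROMR had 9.15, 8.35 and 9.28 CPM in knockdown and 8.22, 7.79 and 7.60 CPM in control libraries; the groups lay apart, but 0.18 ± 0.12 (SE, log2) did not pass (edgeR adjusted p = 0.530). CHROMR and ZMPSTE24-DT were chosen after their values were seen.

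The noncoding transcripts with the smallest p also stayed short of the threshold; these were likewise chosen after their values were seen. AC079466.1, a long intergenic RNA on chromosome 19, averaged 9.15 ± 0.419 CPM in knockdown and 12.2 ± 1.69 CPM in control cells (SD, n = 3 each), at -0.41 ± 0.12 on the log2 scale (SE, edgeR adjusted p = 0.0895). AC006967.3 on chromosome 7 averaged 6.33 ± 0.954 CPM in knockdown and 8.76 ± 0.759 CPM in control cells (SD, n = 3 each), with an edgeR adjusted p of 0.0962. In both, the groups of libraries did not overlap. AC215219.1, which has no entry in the annotation, averaged 8.96 ± 0.749 CPM in knockdown and 6.65 ± 0.255 CPM in control cells (SD, n = 3 each), with an edgeR adjusted p of 0.0861.

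The gene that overlaps each clone-named transcript the most was read beside it. Of 47 such genes tested, 1 passed, where 2.83% of all rows tested passed. This was SDHAF2, an assembly factor of succinate dehydrogenase. SDHAF2 fell to 18.8 ± 0.908 CPM in knockdown, against 24.1 ± 1.46 CPM in control cells (SD, n = 3 each), at -0.36 on the log2 scale (edgeR adjusted p = 0.0309). AP003108.2, the protein-coding transcript that overlaps it and shares 9.64% of its words with it, had 266, 293 and 229 counts in knockdown and 290, 221 and 146 in control libraries. The groups overlapped, and its log2 fold change was 0.02 ± 0.16 (SE, edgeR adjusted p = 0.964). AC068580.4, which overlaps IFITM10 and begins inside CTSD, the gene of the lysosomal protease cathepsin D, 619 bases from its start, averaged 68.0 CPM in knockdown and 63.0 CPM in control cells and did not pass (edgeR adjusted p = 0.447).

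Of the 27 pseudogenes, 16 shared 50% or more of their words with other genes and 4 shared under 10%. AC026877.1, now CAP1P1, is a processed pseudogene at chr3:76434018-76435428 on the plus strand and a copy of CAP1, a regulator of actin filaments; the 2 transcripts are 93.6% identical over 1430 aligned columns. It had 88.7, 87.3 and 88.6 CPM in knockdown and 79.1, 80.7 and 90.3 CPM in control libraries, and the groups overlapped (0.08 ± 0.06, SE, log2; edgeR adjusted p = 0.545). CAP1 stood at 12770 CPM in knockdown and 13030 CPM in control cells. The 90 aligned bases in which the copies differ the most are shown, with the differing bases in capitals (GENCODE 29, plus strand of both genes, CAP1 on chromosome 1).
AC026877.1 beside CAP1: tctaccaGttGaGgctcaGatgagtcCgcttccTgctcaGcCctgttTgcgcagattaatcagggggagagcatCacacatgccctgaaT
CAP1 beside AC026877.1: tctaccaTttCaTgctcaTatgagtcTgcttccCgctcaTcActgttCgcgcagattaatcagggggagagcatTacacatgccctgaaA

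Other copies have a transcript that is identical to one of the parent. AC116533.1, now RPL36AP37, is a copy of RPL36A, a protein of the large ribosomal subunit, and its transcript of 321 bases is identical to it. It had 38.9, 46.4 and 33.6 CPM in knockdown and 55.7, 54.9 and 41.5 CPM in control libraries, while RPL36A averaged 148 CPM in knockdown and 146 CPM in control cells. The groups overlapped, and the log2 fold change of -0.35 ± 0.11 (SE) did not pass (edgeR adjusted p = 0.119). Without control replicate 3 it was -0.47 and passed (edgeR adjusted p = 0.0139). With the replicate number as a block AC116533.1 also passed (edgeR adjusted p = 0.00941). Summed with RPL36A, which holds 100% of its words, it gave -0.06 on the log2 scale and did not pass (edgeR adjusted p = 0.64). AC004057.1 has a transcript of 348 bases that is identical to RPS26, a protein of the small ribosomal subunit, and another transcript that carries the 123 of its 468 words found in no other gene. It held 41.2 to 49.2% of the counts of the pair in knockdown libraries and 43.4 to 46.6% in control libraries, and gave -0.14 ± 0.08 on the log2 scale (SE, edgeR adjusted p = 0.414).

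On chromosome 21, 4 transcripts share 83.6 to 100% of their words with a gene of the table annotated elsewhere on the same chromosome. Whether they are separate expressed genes was not tested. FP565260.6 is identical over 3898 bases to a transcript of TRAPPC10, a subunit of a vesicle-tethering complex, and held 43.1 to 44.8% of the counts of the pair in knockdown and 44.0 to 46.5% in control libraries. It averaged 62.4 CPM in knockdown and 69.0 CPM in control cells, with no overlap between groups (-0.15 ± 0.05, SE, log2; edgeR adjusted p = 0.167). FP565260.3 shares 95.4% of its words with ICOSLG, the ligand of the T cell costimulator ICOS. It held 28.5 to 32.8% of its pair in knockdown and 26.7 to 29.2% in control libraries.

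FP565260.1 and CU639417.2 took nearly all counts of their pairs. FP565260.1 held 97.02 to 99.1% in knockdown and 97.2 to 100% in control libraries, while PWP2, a factor of ribosomal RNA processing, had 4 to 10 counts in knockdown and 0 to 8 in control libraries. CU639417.2 held 92.0 to 96.6% in knockdown and 88.7 to 95.6% in control libraries, against HSF2BP. For PWP2 and HSF2BP, the row with the familiar symbol thus holds almost none of the counts assigned to the pair. None of these 4 clone-named transcripts of chromosome 21 passed (edgeR).

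In all, 43 transcripts share 50% or more of their words with 1 gene of the table. The partner was tested in 39 of these pairs and passed in none. In the other 4, with PWP2 and HSF2BP among the partners, it was too low to be tested. PKD1P1 is the partner in more than 1 pair and is counted each time. In the 39 pairs the log2 fold change had the same sign as that of the partner in 21 and the other sign in 18. REL, the NF-kB subunit, and AC010733.2, all of whose words lie in REL, are an example of opposite signs: AC010733.2 averaged 28.8 CPM in knockdown and 25.6 CPM in control cells and REL 158 and 177 CPM, and neither passed (edgeR adjusted p of 0.317 and 0.0792).

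The spread between replicates was measured as the SD of log2(CPM + 1) within a group, which had a median of 0.156 over the 113 transcripts and was above 0.3 in 14 of them (12.4%). In 6639 other rows with a mean of 6.02 to 65.9 CPM the median was 0.099, and 0.798% were above 0.3, but most of the transcripts lie low in that range, where counting error is larger. Set beside other rows in the same range of CPM, the median was 0.171 in 32 transcripts of 6 to 8 CPM, against 0.150 in 567 other rows. It was 0.143 in 15 transcripts of 8 to 10 CPM, against 0.137 in 447 other rows, 0.176 in 30 transcripts of 10 to 20 CPM, against 0.115 in 1868 other rows, and 0.132 in 20 transcripts of 20 to 40 CPM, against 0.091 in 2173 other rows. Between 10 and 20 CPM the levels were not matched, with a median of 11.8 CPM in the transcripts and 14.4 CPM in the other rows. By class the median was 0.215 in the protein-coding transcripts, 0.176 in the pseudogenes and 0.137 in the noncoding ones. By sequence it was 0.176 where 50% or more was shared, 0.137 at 10 to 50% and 0.144 under 10%. These are descriptions with no test, since the transcripts were chosen by their counts.

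**Figure D4:**
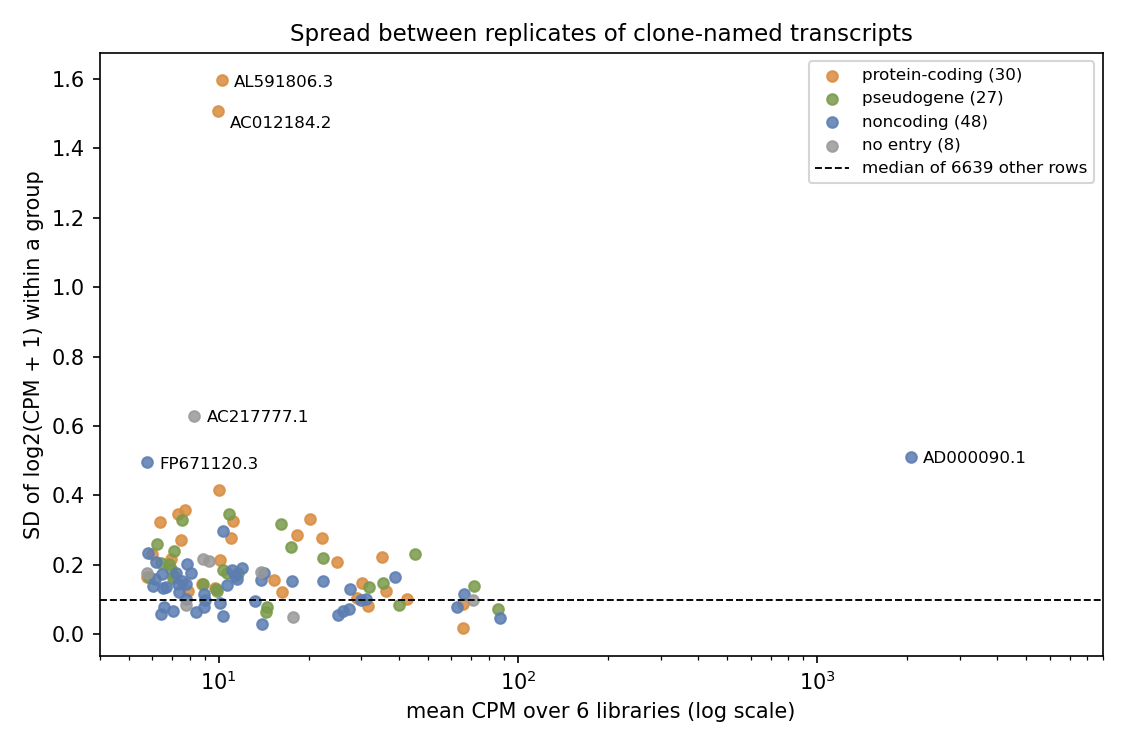
SD of log2(CPM + 1) within a group (y axis, variances of the knockdown and control groups averaged) against mean CPM over 6 libraries (x axis, log scale) for the 113 transcripts by class. The dashed line is the median of 6639 other rows, 0.099; AL591806.3 and AC012184.2 lie above 1.5.

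The 2 transcripts with the largest spread were each listed at 0 in a single library. AL591806.3, which overlaps F11R, the junctional adhesion molecule A, had 140, 189 and 0 counts in knockdown and 94, 95 and 207 in control libraries. F11R in the same libraries had 1264, 1490 and 1439 counts in knockdown and 1319, 1424 and 1085 in control cells. Knockdown library 3, where AL591806.3 was at 0, had the highest F11R level of its group, at 118 CPM, and the 2 rows together gave 114, 118 and 118 CPM in knockdown and 134, 127 and 124 CPM in control libraries.

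AC012184.2, which overlaps DDX19B and shares 73.0% of its words with DDX19A, a paralogous RNA helicase, had 177, 0 and 115 counts in knockdown and 124, 148 and 122 in control libraries. DDX19A had 540, 806 and 547 counts in knockdown and 506, 548 and 443 in control libraries, highest in the library where AC012184.2 was at 0. Their sum was 58.1, 56.5 and 54.4 CPM in knockdown and 59.5, 58.3 and 54.4 CPM in control libraries. Neither AL591806.3 (edgeR adjusted p = 0.715) nor AC012184.2 (edgeR adjusted p = 0.634) passed, and their fitted fold changes are not read, since 1 library at 0 sets them.

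**Figure D5:**
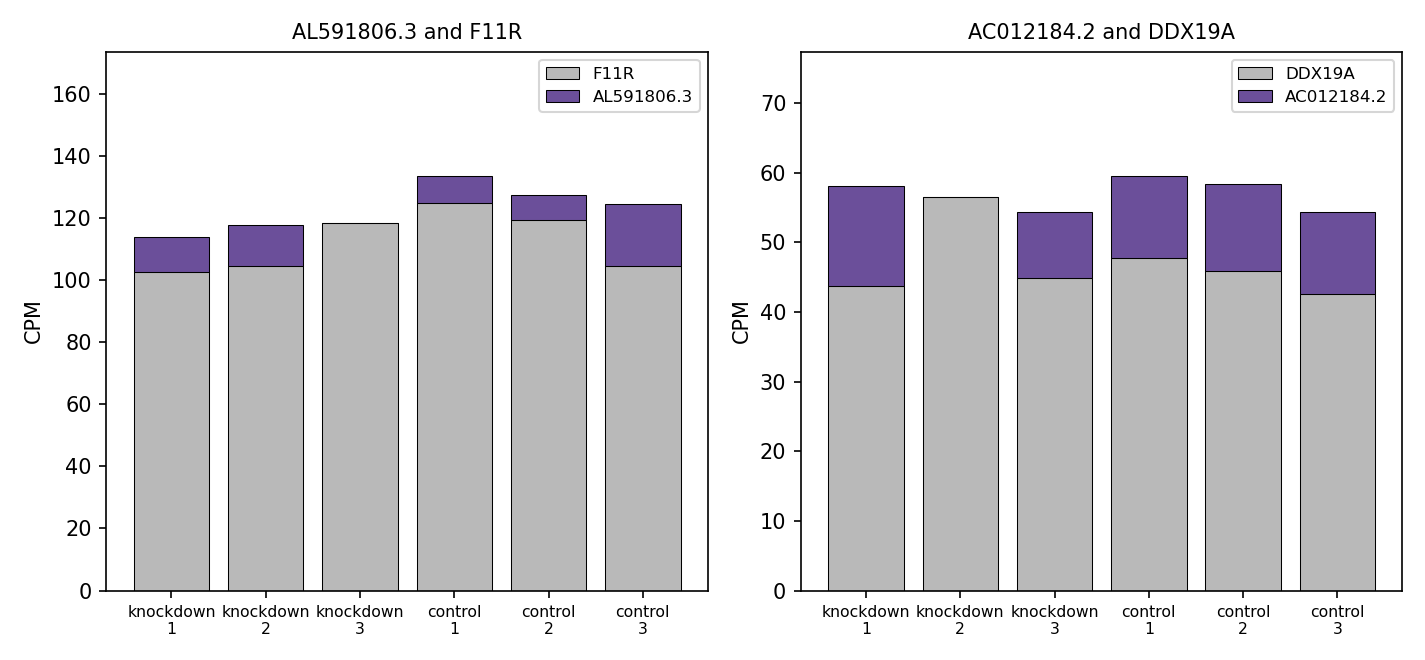
CPM (y axis, from 0) of AL591806.3 stacked on F11R (left) and AC012184.2 stacked on DDX19A (right) in each knockdown and control library. Where the clone-named transcript is at 0, in knockdown library 3 on the left and knockdown library 2 on the right, the stack is as tall as in the other knockdown libraries to within a few CPM.

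AC217777.1, one of the 8 without an entry, had the next largest spread, with 152, 63 and 99 counts in knockdown and 101, 53 and 113 in control libraries. Replicate 2 was the lowest of both groups, and the group means were 8.29 CPM in knockdown and 8.29 CPM in control cells. Of the same 8, AC026366.1 was the most abundant, at 839, 948 and 826 counts in knockdown and 853, 890 and 690 in control libraries, and did not pass (-0.13 ± 0.07, SE, log2; edgeR adjusted p = 0.354).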

How the data were processed

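The table deposited by the authors gives, for each symbol and each of 6 libraries, an expected count as a whole number. The submitters' processing notes name Salmon 0.11.2, DESeq2 and hg38 without saying what each was used for. How transcripts were summed, whether strand was used and which annotation was read are not given in the sources used here. Counts were used as deposited. The lowest row sum in the table was 10.

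The test was the two-sided quasi-likelihood F test of edgeR 4.0.16 with TMM factors and the group as sole term, on the 13405 rows that filterByExpr kept. P-values were adjusted by the Benjamini-Hochberg method and read at 0.05. The SE is approximate, taken as the size of the log2 fold change over the root of its F. The transcripts and gene lists were chosen with earlier results of these data known. Named transcripts were those past the threshold, the 10 with the highest mean CPM, the 5 with the largest spread, those with a count of 0 and the 3 on either side of the count minimum, with overlapping or nearest genes; others are said to be outside this rule or serve as examples of a class. The methods were tested on simulated data. Positions, types and sequences came from GENCODE 29, which matched 16651 of 17042 symbols. Libraries of a group were no duplicates (chi-square per degree of freedom 1.90 to 6.79). Alternatives were RLE and upper-quartile normalization, DESeq2 1.42.0, limma-voom 3.58.1, 2 other filters, other thresholds, a replicate block, leaving out each library and, added after seeing the data, summing each transcript with the gene sharing most of its words and leaving out AD000090.1 alone. Counting intervals cover counting error only. Other tools were R 4.3.3, Python 3.11.15, pandas 2.3.3, numpy 2.4.6, scipy 1.17.1 and matplotlib 3.10.9, and blastn for the 4 alignments.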

Additional observations from a re-analysis of the deposited data

How the results depend on the processing

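The count of 3 clone-named transcripts past the threshold was the same under RLE or upper-quartile normalization, limma-voom, no filter, a filter of 1 CPM in 3 libraries and a count minimum of 200, and 2 under DESeq2, which gave no adjusted p for AC002996.1. With the replicate number as a block 5 passed, adding AC116533.1 (edgeR adjusted p = 0.00941) and AD000090.1 (0.0193). Over all rows 488 passed with the block, against 379 without it. No label pairs the libraries by number, and whether they are paired is not settled here. Same-numbered libraries correlated at 0.0464, 0.09996 and 0.0830 in their deviations, and each correlated best with its own number. Libraries of different numbers correlated at -0.0846 to 0.000889. Summed with the gene sharing most of their words, 1 passed; at an adjusted p of 0.01, 0 passed, as at a count minimum of 1000, where 42 transcripts are left. Leaving out each library in turn gave 0 to 6 transcripts (5, 0 and 6 without control replicates 1, 2 and 3) and 139 to 542 of all rows, against 379; at an adjusted p of 0.01, 150 of all rows passed. AD000090.1 passed without control replicate 3 (edgeR adjusted p = 0.00726). The difference in the share of counts, 0.0638 percentage points, ran from 0.0255 to 0.105 when a library was left out, and was 0.000179 without the 3 most counted transcripts and 0.000177 without AD000090.1. Of 19 named transcripts, 0 to 3 changed sign under any setting, and none of the 3 called did. Transcripts near 400 counts hold 43 to 85 per library in AC002996.1, so small changes in them were not detectable at this depth.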
